A study of Mus musculus with 8 samples.

Results

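Neutrophils that lacked the histamine H2 receptor (H2R) and had been drawn into the mouse peritoneum were split by density, and the gene counts of 2 low-density libraries were compared with those of 2 high-density libraries. These are 4 of the 8 libraries of the study, and the other 4 hold the same populations from wild-type mice, 2 libraries each. All 4 groups share the C57BL/6 strain, an age of 2 months and elicitation with casein, a milk protein that calls neutrophils into the cavity, and total RNA was sequenced from each. The labels give the genotype only as H2R deficient. The sources used here do not give how the receptor was removed, how the densities were separated or how many animals stand behind a library. The comparison runs across all genes, and 14909 of the 49315 gene identifiers had enough counts to be tested.

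The H2 receptor couples to the stimulatory G protein and raises cyclic AMP when histamine binds, and cyclic AMP is known to restrain neutrophil activation. Mature neutrophils are short-lived, no longer divide and act with granules and receptors made earlier. Most neutrophils sediment as dense cells on a density gradient, while low-density neutrophils are those found with the mononuclear layer, where lymphocytes, monocytes and dendritic cells also collect.

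The 4 libraries held 21063551 to 24199215 counts. The number of genes with at least 1 count was 19408 and 19391 at high and 22675 and 21947 at low density. The 10 most abundant genes took 13.3% and 15.1% of the counts at high density and 9.29% and 10.9% at low density. Across genes, log2 CPM of the replicate libraries correlated with r = 0.980 at high and 0.978 at low density, and the first principal component, with 84.9% of the variance, separated the densities. Neutrophil identity was plain in all 4: S100a8 encodes a calcium-binding protein that fills the neutrophil cytosol, and it stood at 12914 and 13036 CPM (a share of counts, explained next) at high and 6457 and 8776 CPM at low density, while the promyelocyte genes Mpo and Elane had 0 to 3 counts in each. Xist was counted in every library and none of 4 Y-linked genes had more than 4 counts in any.

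Values are given on 2 scales. CPM is a gene's share of all gene counts in 1 library, on the customary scale on which the genes of any library sum to the same total. The log2 fold change, low over high density, was taken after TMM scaling (trimmed mean of M values, which sets most genes to no change), and its scaling factors were 0.772 and 0.742 at high against 1.49 and 1.34 at low density. A gene whose CPM is equal in all 4 libraries therefore has a log2 fold change near -0.90. Gapdh, a glycolytic enzyme, had 1624 and 1541 CPM at high and 1508 and 1556 CPM at low density, overlapping ranges on this scale, and a log2 fold change of -0.95 ± 0.18, adjusted p = 0.00219. Scaling by total counts alone moved the median of all tested genes by 0.90, from 0.10 to 1.0. Calls (adjusted p under 0.05) and the words rose and fell refer to TMM unless total counts are named. Nothing in the labels says that the replicate libraries came from separate mice, so p-values rest on the spread of these libraries alone, and that spread may be technical. In bulk RNA, fewer cells of a type and less RNA per cell cannot be told apart.

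Hrh2 itself (ENSMUSG00000034987, chr13:54192129-54236180, GRCm38), which encodes the H2 receptor, had 599 and 275 counts in the deficient high-density libraries and 435 and 215 in the deficient low-density libraries. The wild-type libraries had 2003 and 700 counts at high and 556 and 830 at low density. Reads over the gene thus remained in every deficient library, and since the deleted part is not given, they do not test the genotype. Within the deficient libraries Hrh2 did not pass the test (log2 fold change -1.42 ± 0.55, adjusted p = 0.0631). On total counts its log2 fold change was -0.504, also not called (edgeR, adjusted p = 0.467). Its CPM overlapped between the densities: the higher low-density value exceeded the lower high-density one. DESeq2 called Hrh2 lower (adjusted p = 0.00526), as did edgeR with TMM and the replicate number as a block (adjusted p = 0.0105). A fall of Hrh2 thus depended on the scaling and the model. Hdc, the enzyme that makes histamine, was abundant and fell, from 3631 and 4459 CPM at high to 1820.1 and 2731 CPM at low density, a log2 fold change of -1.72 ± 0.31, adjusted p = 0.00195.

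Density separated the transcriptomes of H2R-deficient cells widely. Of the tested genes, 8044 (54.0%) were called, 4478 higher (30.0%) and 3566 lower (23.9%) at low density. The ranges of the densities did not overlap for 12086 genes (81.1%) in TMM-scaled values and for 11708 (78.5%) in CPM, and statements on overlap of single genes refer to CPM. The rises were large and the falls small: 2296 rises but 151 falls passed 4-fold, and 230 rises but 8 falls passed 32-fold. Of those 230 genes, 137 had no count in either high-density library, so their fold is set by the fit and not measured. The split followed the level. Cut into 5 classes of equal size by mean level, the most abundant class had 231 genes that rose and 2108 that fell, with a median log2 fold change of -0.87, whereas in the middle class 1435 rose and 328 fell, with a median of 0.72. The most abundant class held 2982 genes. Counts of list members below are to be read beside the shares of all tested genes, 30.0% and 23.9%, and beside this class. On total counts 7690 genes (51.6%) were higher and 389 (2.61%) lower, and of the 3566 genes that fell after TMM 2354 had a total-count log2 fold change below 0, 389 of them called, while 1212 lay above 0. Testing against a change of at least 2-fold kept 2252 genes higher (15.1%) and 362 lower (2.43%).

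**Figure D1:**
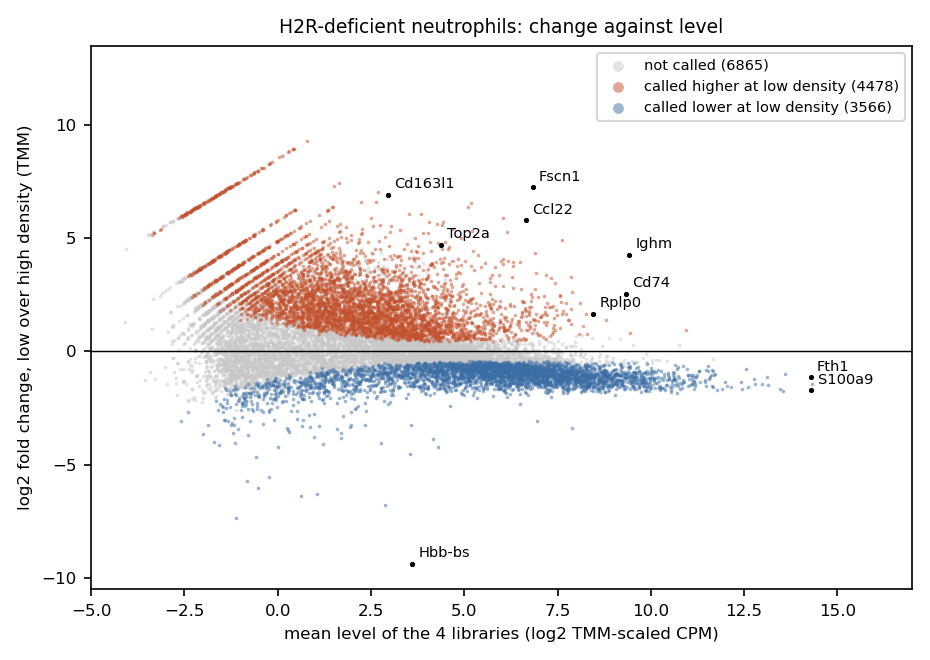
Log2 fold change (low over high density, TMM scaling) of each tested gene against its mean level in the 4 H2R-deficient libraries (log2 TMM-scaled CPM). The 4478 genes called higher lie mostly at low and middle levels and reach large folds, the 3566 called lower crowd the abundant end within a narrow band, and the slanted lines at upper left are genes with few or no counts at high density.

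Transcripts of lymphocytes and antigen-presenting cells were among the steepest rises. Fscn1 (chr5:142960343-142973185), which bundles actin in the dendrites of mature dendritic cells, had 1.35 and 0.899 CPM at high and 271 and 366 CPM at low density, a log2 fold change of 7.25 ± 0.94, adjusted p = 0.00118. Ccl22, a chemokine that dendritic cells secrete to attract T cells, went from 2.57 and 2.84 CPM to 240.4 and 318 CPM (5.79 ± 0.95, adjusted p = 0.00294). Cd163l1, a scavenger receptor of gamma-delta T cells, was near the floor at high density with 2 counts in each library and had 20.8 and 22.7 CPM at low density (6.92 ± 0.37, adjusted p = 0.000147). For each of the 3 genes both low-density libraries stood far above both high-density libraries.

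Markers of B cells, antigen-presenting cells and some lymphocytes rose as groups after TMM. Of the markers of T cells in general, mast cells, eosinophils and platelets few or none were called higher. Of 15 B cell markers, 14 rose and none fell, where 30.0% of all tested genes rose and 23.9% fell, with a median log2 fold change of 3.88 against 0.10 for all genes tested, and their summed counts took 0.00900% and 0.0126% of the high-density libraries but 0.381% and 0.354% of the low-density ones. Ighm, the heavy chain of IgM, had 44.3 and 58.2 CPM at high and 1970.2 and 1730.0 CPM at low density (4.26 ± 0.46, adjusted p = 0.000308). Both low-density libraries were thus well above both high-density ones. In the annotation's class of immunoglobulin variable segments 96 of 120 tested genes rose and none fell. The class took 0.00192% and 0.00240% of counts at high and 0.108% and 0.0767% at low density. With so few counts at high density, segments could pass the filter through low-density libraries alone. The lack of falls was thus largely set in advance and adds no separate support.

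All 10 MHC class II genes rose (median 3.16), led in abundance by Cd74, the invariant chain that guides class II molecules, at 143 and 142 CPM against 1523 and 1587 CPM (2.55 ± 0.28, adjusted p = 0.000246). Of 13 dendritic cell markers 9 rose, among them Flt3, Ccr7 and Zbtb46, and only the integrin Itgax, which neutrophils also carry, fell (log2 fold change -1.33). Flt3, with 2 and 9 counts at high density, could be tested only through groups where it was higher. Xcr1 and Clec9a, markers of cross-presenting dendritic cells, did not pass the test. Xcr1 had 0.406 and 0.379 CPM at high and 0.909 and 0.760 CPM at low density, and Clec9a had 1.40 and 2.22 CPM at high and 1.90 and 2.42 CPM at low density, where the log2 fold change was -0.64 but 0.25 on total counts.

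All 14 measured markers of gamma-delta and IL-17-producing lymphocytes rose, with a median of 4.44. It was 4.21 with Il17a, which had no count at high density, set to the bound that 3 counts over the group allow. Of the list's 15 members 3 and 4 had no count in high-density libraries 1 and 2. Such members could be tested only through groups where they were higher, so that all measured markers rose is partly set by the filter. Trdc, the constant part of the delta receptor chain, had 0.0901 and 0.284 CPM at high and 12.4 and 13.6 CPM at low density (5.21 ± 0.47, adjusted p = 0.000199), and both low-density libraries were far above both others. Of 14 natural killer and cytotoxic markers 12 rose (median 2.90), including Ccl5 and the granzymes Gzma and Gzmb. The list summed to only 4.46 and 5.30 CPM at high density, and 3 members had no count in high-density library 2. Gzma and Gzmb, with 11 counts each at high density, could be tested only through groups where they were higher. The number that rose is thus also partly set by the filter. Markers of T cells in general were mostly not called: 1 of 21 rose, the costimulator Icos, and 2 fell, Cd4 and Cd8b1, with 4 higher and 1 lower on total counts. Their summed share was 0.00192% and 0.00739% at high and 0.0106% and 0.0132% at low density, and without high-density library 2, the higher of the high-density values, 7 T cell markers rose and none fell. None fell without low-density library 1 either, 4 fell without high-density library 1, and Cd8b1 was not called on total counts or without low-density library 2. With the replicate number as a block 4 rose.

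Monocyte and macrophage markers were mixed. Of monocyte markers 41.7% rose and 16.7% fell, and of macrophage markers 36.8% and 21.1%, where 30.0% and 23.9% of all tested genes did. Of 12 monocyte markers 5 rose, among them Ccr2, the receptor that brings inflammatory monocytes out of the marrow (4.06 and 2.84 CPM against 49.6 and 42.2 CPM, 2.83 ± 0.29, adjusted p = 0.000228), and Ly6c2 and Nr4a1 fell (-1.35 and -1.19, neither called on total counts). With the replicate number as a block 4 monocyte markers fell. Of 19 macrophage markers 7 rose and 4 fell, and leaving out high-density library 1 or low-density library 1 left 4 risen, and without low-density library 2 the number that fell was 2. Of 9 mast cell and basophil markers 4 fell and none rose, or 1 or 2 fell when any 1 of the 4 libraries was left out, and on total counts none was called. Of 8 eosinophil markers 3 fell and 1 rose, and on total counts 1 was higher and none lower. None of 6 platelet markers was called, or 1 higher on total counts. In summed CPM the eosinophil list had 29.0 and 33.4 at high and 46.8 and 52.6 at low density. The platelet list had 106 and 73.4 at high and 225 and 136 at low density, so both lists were higher without overlap. The mast cell and basophil list was lower, with 51.2 and 39.1 CPM at high and 35.0 and 32.0 CPM at low density. Mesothelial and stromal transcripts were uneven between replicates: the marker list took 0.00676% and 0.00714% at high density but 0.0544% and 0.0144% at low density. Col3a1, a fibrillar collagen, had 133 and 14 CPM in the low-density libraries against 4.42 and 0.426 CPM and did not pass the test (3.96 ± 1.75, adjusted p = 0.1), with low-density library 1 standing apart. With the replicate number as a block 13 of those 16 markers were called higher in place of 3, and leaving out either high-density library left 1. B cell, class II, dendritic and lymphocyte markers moved with every gene group described from here on, and their part in those results was not tested.

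**Figure D2:**
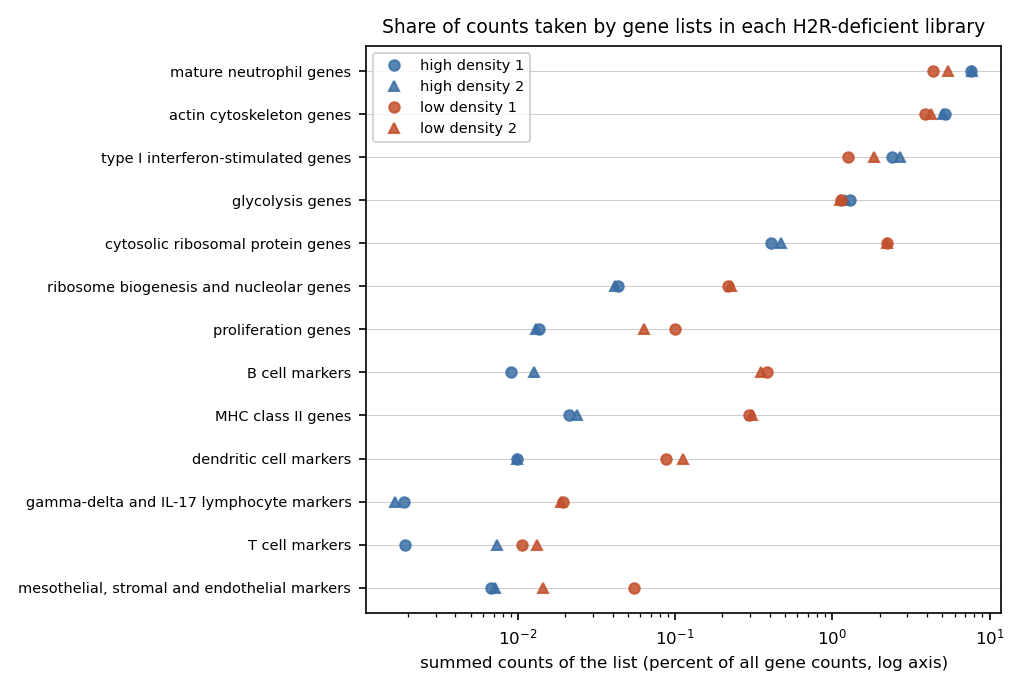
Summed counts of 13 gene lists as a percentage of all gene counts (log axis) in each of the 4 H2R-deficient libraries. Blue marks high and orange low density, and circles and triangles mark replicates 1 and 2. Neutrophil, actin and interferon lists lie lower at low density, and glycolysis lies close together. Ribosomal, division, B cell, class II, dendritic and gamma-delta lists lie far higher, T cell markers less so, and stromal transcripts are high in low-density library 1.

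The genes that set the neutrophil apart fell together. All 24 mature neutrophil genes were lower at low density, with a median log2 fold change of -1.51 on TMM and -0.62 on total counts, where 14 were still lower. They took 7.63% and 7.78% of counts at high density and 4.39% and 5.42% at low density. S100a9 (chr3:90692632-90695721), the partner of S100a8 in calprotectin, had 23072 and 23765 CPM at high and 10882 and 15573 CPM at low density (-1.71 ± 0.28, adjusted p = 0.00122). Cxcr2, the receptor for neutrophil-attracting chemokines, had 2036 and 1884 CPM at high and 874 and 1139 CPM at low density (-1.85 ± 0.25, adjusted p = 0.000535). Both low-density libraries were below both high-density ones for each, with low-density library 1 the lowest.

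Surface receptors followed the same course. Of 20 Fc, pattern and lectin receptors 18 fell and none rose (median -1.36, or -0.47 on total counts, where 6 were lower). Of 20 chemoattractant and adhesion receptors 17 fell (median -1.29, or -0.40 on total counts, where 3 were lower and 2 higher), and the exceptions that rose, named after their values were seen, were C3ar1, the receptor for complement C3a (0.97), and the integrin chain Itga4 (1.01). C5ar1, the receptor for complement C5a, fell from 1168 and 1193 CPM to 634 and 784 CPM (-1.63 ± 0.24, adjusted p = 0.000703), and Tlr13, an endosomal sensor of bacterial ribosomal RNA, fell from 1168 and 1071 CPM to 754 and 696 CPM (-1.53 ± 0.18, adjusted p = 0.000295). The ranges of the densities did not overlap for either.

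Granule genes fell less evenly. Of 19 specific granule genes 14 fell (73.7%, where 23.9% of all tested genes did) and none rose. The median was -1.12, or -0.23 on total counts, where 2 were lower and 1 higher. The collagenase Mmp8, for example, fell from 2596 and 2664 CPM to 1513 and 1899.9 CPM (-1.52 ± 0.26, adjusted p = 0.00145). Without low-density library 1 the number that fell was 9. Of 15 genes of gelatinase granules and secretory vesicles 11 fell, including the gelatinase Mmp9 (-1.66 ± 0.31, adjusted p = 0.00217), and 2 rose, while on total counts 2 were lower and 3 higher. The arginase Arg1 (1.19) was not called without high-density library 1 or low-density library 2. The phosphatase Alpl had 3 counts in all at high and 133 at low density, a ratio of shares, high over low, of 0.0236 with a 95% exact counting interval of 0.0048 to 0.0704.

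Genes of the oxidase that makes superoxide mostly fell after TMM but not on total counts. Of 10 measured NADPH oxidase and extracellular trap genes 8 fell (median -0.94), while on total counts 2 were higher and 2 lower (median -0.04). The catalytic subunit Cybb did not pass the test (-0.31 ± 0.16, adjusted p = 0.131), with 454 and 399 CPM at high and 664 and 621 CPM at low density, and on total counts it was called higher (0.59, adjusted p = 0.0127).

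Among 25 transcription factors of granulocytes 18 fell (72.0%, where 23.9% of all tested genes did) and 1 rose, or 2 with the replicate number as a block. The median was -1.01, or -0.10 on total counts, where 5 were lower and 4 higher. Cebpb, which drives emergency granulopoiesis, fell from 1930.4 and 1933 CPM to 1129.6 and 1325 CPM (-1.55 ± 0.20, adjusted p = 0.000445). Irf8, which directs progenitors toward monocytes and dendritic cells and away from granulocytes, was the one that rose, from 3.33 and 5.25 CPM to 54.6 and 70.9 CPM (2.97 ± 0.36, adjusted p = 0.000394). Socs2, a feedback inhibitor of cytokine receptors, rose from 0.451 and 0.710 CPM to 30.2 and 39.1 CPM (5.0 ± 0.35, adjusted p = 0.000159), while 10 of 18 genes of colony-stimulating factor receptors and their inhibitors fell after TMM (1 lower and 3 higher on total counts), among them Csf3r, the receptor for granulocyte colony-stimulating factor (-1.64 ± 0.29, adjusted p = 0.00175). For Irf8 and Socs2 every low-density value was several-fold above every high-density value.

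Other transcripts also fell. Id1, an inhibitor of helix-loop-helix transcription factors, fell from 103 and 125 CPM to 32.1 and 51.9 CPM (-2.33 ± 0.37, adjusted p = 0.00125), and Snai1, a zinc-finger repressor, fell from 58.7 and 39.8 CPM to 22.9 and 21.2 CPM (-2.06 ± 0.26, adjusted p = 0.000424). Each had both low-density libraries below both high-density ones. The beta-globin gene Hbb-bs had 562 and 249 counts at high density and 1 in each low-density library, a ratio of shares of 424 with a 95% exact counting interval of 117 to 3500. Reads of globin genes may be divided among near-identical copies, so the single gene is uncertain. Of 7 erythroid genes 5 fell, 4 of them globin genes, and 1 rose, Car2, which was not called when any 1 of the 4 libraries was left out. The summed list was not lower at low density, with 90.3 and 65.4 CPM at high and 103 and 88.7 CPM at low density. Most of the low-density sum was Tfrc, the transferrin receptor that dividing cells also use (38.7 and 43.0 CPM at high and 99.8 and 84.8 CPM at low density, log2 fold change 0.27, not called, or 1.18 on total counts).

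**Figure D3:**
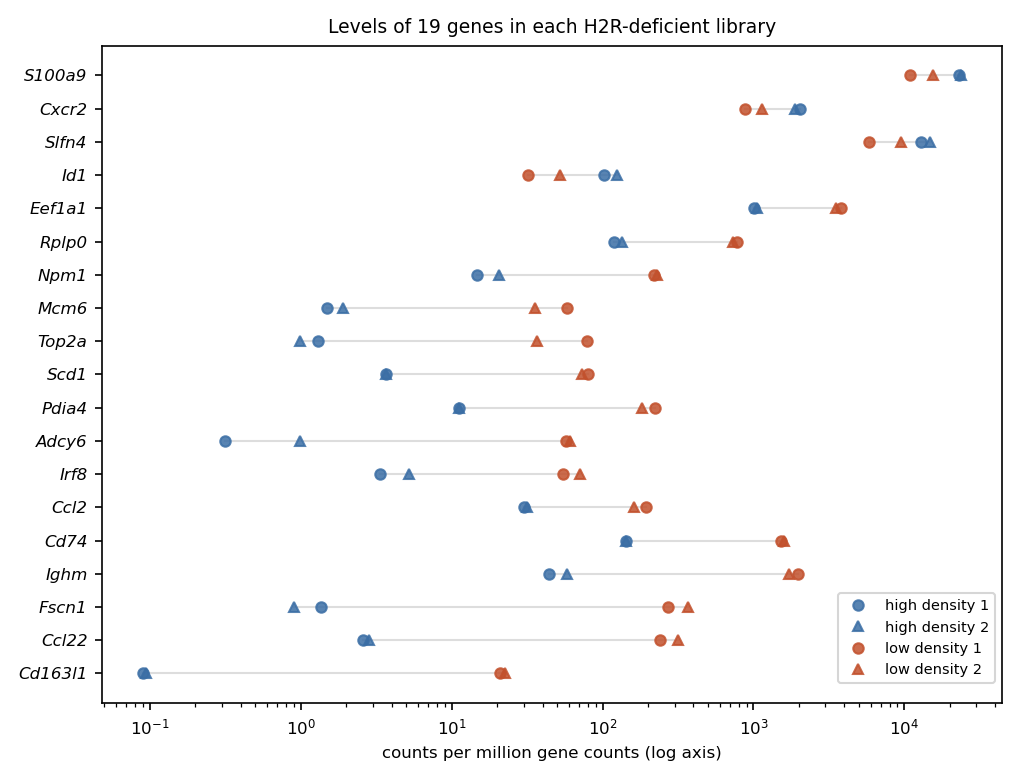
CPM (log axis) of 19 genes in each H2R-deficient library, blue for high and orange for low density, circles and triangles for replicates 1 and 2, with a grey line over each gene's range. S100a9, Cxcr2, Slfn4 and Id1 lie lower at low density and the other 15 genes higher, without overlap of the densities.

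Type I interferon-stimulated genes, which encode antiviral effectors, mostly fell after TMM. Of 49 measured, 38 fell (77.6%, where 23.9% of all tested genes did) and 2 rose. In the most abundant class of all tested genes 2108 of 2982 fell. The list's median log2 fold change was -1.47 on TMM and -0.58 on total counts, where 10 were lower and 4 higher. Slfn4, a Schlafen gene of myeloid cells and the most abundant of the list, had 12913 and 14729.9 CPM at high and 5804 and 9534 CPM at low density (-1.74 ± 0.30, adjusted p = 0.00148). Ifitm2, which blocks viral entry, had 706 and 695 CPM at high and 414 and 486 CPM at low density (-1.53 ± 0.22, adjusted p = 0.000698). Both densities were apart for each, with low-density library 1 the lowest. The exceptions that rose, Mx1 (2.31) and Ifi205 (1.85), are also interferon-inducible, and Mx1 was not called without high-density library 1. The count of genes that fell was sensitive to single libraries: it was 20 without low-density library 1 and 23 without high-density library 2.

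Promoters of these genes are shown because most members fell and many matched promoters hold a short motif. RefSeq promoter windows (GRCm38.p6) were matched for 37 of the 50 members, which is under 80%, so a check of the whole list is void and the shares describe the matched members. Of the 37 matched, 20 held the core of the interferon response element (TTTC, any 2 bases, TTTC) on either strand within 250 bases before and 50 after the start, against 4.0% of tested genes with a promoter and 3.44% of all promoters in the table. The windows below run from 150 bases before to 50 after the start, and capitals mark the core on either strand, with overlapping matches merged. Isg15 and Ifit1 were chosen after their values were seen, as members that hold it.
Isg15 (chr4:156200769-156200968, minus strand): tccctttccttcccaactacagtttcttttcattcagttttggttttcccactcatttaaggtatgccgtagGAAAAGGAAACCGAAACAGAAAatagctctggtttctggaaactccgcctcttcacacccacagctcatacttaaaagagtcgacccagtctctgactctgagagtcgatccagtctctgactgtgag
Ifit1 (chr19:34640739-34640938, plus strand): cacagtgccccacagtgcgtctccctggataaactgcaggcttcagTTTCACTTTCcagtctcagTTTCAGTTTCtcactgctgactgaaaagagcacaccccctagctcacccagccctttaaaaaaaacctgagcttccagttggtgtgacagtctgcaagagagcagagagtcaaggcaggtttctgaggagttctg
Ifitm2 (chr7:140955912-140956111, minus strand): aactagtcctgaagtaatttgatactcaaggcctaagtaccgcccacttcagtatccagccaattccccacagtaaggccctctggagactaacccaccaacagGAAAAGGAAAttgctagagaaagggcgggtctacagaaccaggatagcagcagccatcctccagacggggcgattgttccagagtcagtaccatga
Isg15, a ubiquitin-like modifier, had 145 and 191 CPM at high and 67.5 and 109 CPM at low density (-1.82 ± 0.46, adjusted p = 0.0118), and Ifit1, which binds viral RNA, had 67.6 and 109.8 CPM at high and 28.6 and 61.0 CPM at low density (-1.87 ± 0.61, adjusted p = 0.0361). The densities did not overlap, though for Ifit1 the higher low-density value approached the lower high-density one. Neither was called on total counts, without high-density library 2 or without low-density library 1. A match describes the letters only.

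Inflammatory genes kept much of their share. Of 28 NF-kB subunits, targets and regulators 22 fell (78.6%, where 23.9% of all tested genes did) and 1 rose after TMM (median -0.91). On total counts the median was -0.01, with 1 lower and 2 higher. Without high-density library 1, or without low-density library 2, 14 fell. Nfkbia, the inhibitor that holds NF-kB in the cytosol, had 3415 and 2921 CPM at high and 2877 and 2906 CPM at low density, with a log2 fold change of -1.03 ± 0.18, adjusted p = 0.00171 but -0.13 on total counts. The lower high-density value lay just above the higher low-density one. Of 24 members with a promoter 2 (8.33%) held an NF-kB core (GGGA, any base, TTTCC, on either strand), against 0.572% of tested genes and 0.411% of all promoters, and Nfkbia is one of them, shown with the core in capitals.
Nfkbia (chr12:55492598-55492797, minus strand): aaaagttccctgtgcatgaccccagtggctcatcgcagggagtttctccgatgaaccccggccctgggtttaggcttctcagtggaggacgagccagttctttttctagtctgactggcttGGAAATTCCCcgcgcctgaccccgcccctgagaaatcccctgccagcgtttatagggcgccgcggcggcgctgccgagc

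Cytokines went both ways. Of 28 measured cytokine and chemokine genes 11 fell (39.3%, where 23.9% of all tested genes did) and 6 rose (21.4%, where 30.0% did). The median was -0.55, while on total counts 2 were lower and 10 higher (median 0.37). Il1b, the central pyrogenic cytokine, fell from 4884 and 4061 CPM to 2686 and 2566 CPM (-1.67 ± 0.31, adjusted p = 0.00231). Cxcl2, a neutrophil attractant and one of the most abundant transcripts at both densities, had 12223 and 12745 CPM at high and 11924 and 11456 CPM at low density, with a log2 fold change of -1.0 ± 0.19, adjusted p = 0.00254 but -0.09 on total counts. Without high-density library 2 the number that fell was 7. The genes that rose were Ccl2, Ccl5, Ccl17, Ccl22, Cxcl16 and Il6, and Il6 was not called without high-density library 1 or low-density library 2. Ccl2, the main monocyte attractant, rose from 30.1 and 31.6 CPM to 194 and 161 CPM (1.61 ± 0.17, adjusted p = 0.000228), both low-density libraries about alike and far above the others. Of 34 immediate-early genes 20 fell and 1 rose after TMM (median -0.89), while on total counts 2 were lower and 7 higher (median 0.02), and the number that fell was 11 or 12 if low-density library 1 or 2 was left out and 13 if high-density library 2 was.

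The decoy and accessory receptors of interleukin 1 fell on both scales. Il1r2, the decoy that captures interleukin 1 without signalling, went from 1075 and 953 CPM to 471 and 608 CPM (-1.8 ± 0.27, adjusted p = 0.000768), and the shared chain Il1rap from 1008 and 1167 CPM to 522 and 690.1 CPM (-1.74 ± 0.25, adjusted p = 0.000718). The inflammasome sensor Nlrp3 fell from 1915 and 2109 CPM to 1477 and 1305 CPM (-1.44 ± 0.24, adjusted p = 0.00121). The signalling receptor Il1r1, also a marker of IL-17 lymphocytes, rose (3.21).

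The translation machinery mostly rose. Of 80 cytosolic ribosomal protein genes 77 rose and none fell, with a median log2 fold change of 1.60 on TMM and 2.51 on total counts, and their share went from 0.407% and 0.474% of counts to 2.24% and 2.22%. Rps27 did not pass the test, nor did Fau and Rps9, whose log2 fold changes of -0.34 and -0.23 turned to 0.56 and 0.67 on total counts. Rplp0, the stalk protein of the large subunit, had 119.7 and 134 CPM at high and 779 and 732 CPM at low density (1.67 ± 0.19, adjusted p = 0.000295), and Rpl10a had 13.4 and 16.8 CPM at high and 198 and 195 CPM at low density (2.80 ± 0.22, adjusted p = 0.000177). Reads of ribosomal protein genes can be shared with their pseudogenes, so single members are less certain than the list.

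Factors that build and feed ribosomes rose with them. Of 47 ribosome biogenesis and nucleolar genes 41 rose and none fell (median 2.01), and their share rose from 0.0435% and 0.0417% to 0.217% and 0.227%. Npm1, the nucleolar chaperone nucleophosmin, had 14.7 and 20.7 CPM at high and 218 and 230.4 CPM at low density (2.76 ± 0.27, adjusted p = 0.000204). Nop58, a core protein of box C/D small nucleolar particles, had 5.0 and 5.35 CPM at high and 50.4 and 58.8 CPM at low density (2.5 ± 0.20, adjusted p = 0.000177), both low-density libraries about equal and far above the others. Of 22 aminoacyl-tRNA synthetases, which charge transfer RNAs, 18 rose (median 1.60), for example Iars, the isoleucine enzyme (3.21 ± 0.25, adjusted p = 0.000177). Eef1a1, which delivers charged transfer RNAs to the ribosome, had the largest gain in share of any gene, from 1007 and 1052 CPM to 3830.4 and 3539 CPM (0.93 ± 0.18, adjusted p = 0.00257). Of 46 translation factors 28 rose and 6 fell, and without high-density library 2 or low-density library 1 the number that fell was 2.

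Members of the MYC network moved in both directions. Myc, a driver of ribosome production, rose from 3.61 and 4.07 CPM to 27.9 and 33.4 CPM (2.10 ± 0.25, adjusted p = 0.000318), while Mxd1, its antagonist in differentiated cells, fell from 6597 and 6242 CPM to 3732 and 3841 CPM (-1.66 ± 0.21, adjusted p = 0.000402). The densities did not overlap for either. Of the 11 measured genes of the network 3 rose (27.3%, where 30.0% of all tested genes did) and 4 fell (36.4%, where 23.9% did), without high-density library 2 only 1 rose, and on total counts 6 were higher and 1 lower. In promoters, 8 of 42 biogenesis genes (19%) held CACGTG, the E-box to which MYC and MXD proteins bind, against 11.5% of tested genes and 7.15% of all promoters.

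Genes of cell division rose steeply, mostly from low levels. Of 42 proliferation genes 37 rose and none fell, with a median log2 fold change of 3.29, but they took only 0.10% and 0.0636% of counts at low density, against 0.0136% and 0.0130%. Top2a, the topoisomerase that untangles replicated chromosomes, had 1.31 and 0.994 CPM at high and 78.3 and 36.8 CPM at low density (4.71 ± 0.45, adjusted p = 0.000221), with low-density library 1 well above library 2. Mcm6, part of the replicative helicase, had 1.49 and 1.89 CPM at high and 58.2 and 35.8 CPM at low density (3.88 ± 0.35, adjusted p = 0.000203). Mki67, the usual marker of cycling cells, differed less, with 56.3 and 51.4 CPM at high and 173 and 126 CPM at low density and an adjusted p close to the threshold (0.56 ± 0.21, adjusted p = 0.0494), which it missed without any 1 of the 4 libraries and with the replicate number as a block (adjusted p = 0.0510).

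DNA repair and precursor supply moved in the same direction. Of 36 DNA repair genes 22 rose and 1 fell (median 1.42). Lig1, the ligase of replication, rose from 0.856 and 0.946 CPM to 29.8 and 18.7 CPM (3.83 ± 0.33, adjusted p = 0.000193). Of 29 nucleotide and one-carbon synthesis genes 25 rose and none fell (median 2.42), including Atic, the last enzyme of purine synthesis, from 3.11 and 3.60 CPM to 46.9 and 44.3 CPM (2.86 ± 0.23, adjusted p = 0.000188). Each had low-density values far above the high-density values. B cell markers took 0.381% and 0.354% of the same low-density libraries.

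Promoters of 33 of the 42 proliferation genes were matched in the RefSeq table, again under 80%. Of these 33, 15 held TTTGAA, the cell cycle homology region, against 14.8% of tested genes and 17.9% of all promoters, and 27 held the CCAAT box, against 42.6% and 37.4%. The promoters of Top2a and of 2 helicase subunits are shown, 150 bases before to 50 after the start, with any match to either motif in capitals on either strand. The stretches of Mcm6 and Mcm3 hold the CCAAT box and not the other motif.
Top2a (chr11:99024140-99024339, minus strand): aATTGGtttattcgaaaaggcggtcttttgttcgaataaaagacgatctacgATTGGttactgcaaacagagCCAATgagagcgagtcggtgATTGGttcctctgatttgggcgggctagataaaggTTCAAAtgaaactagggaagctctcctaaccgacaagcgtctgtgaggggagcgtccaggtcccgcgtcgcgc
Mcm6 (chr1:128359656-128359855, minus strand): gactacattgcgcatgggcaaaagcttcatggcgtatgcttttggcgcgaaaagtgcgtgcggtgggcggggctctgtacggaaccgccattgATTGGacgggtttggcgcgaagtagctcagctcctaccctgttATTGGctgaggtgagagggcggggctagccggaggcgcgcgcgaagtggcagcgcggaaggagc
Mcm3 (chr1:20820263-20820462, minus strand): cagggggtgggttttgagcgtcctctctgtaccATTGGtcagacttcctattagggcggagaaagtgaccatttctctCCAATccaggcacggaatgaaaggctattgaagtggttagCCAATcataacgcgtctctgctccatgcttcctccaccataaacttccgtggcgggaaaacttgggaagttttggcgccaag
Mcm3 had 0.721 and 1.33 CPM at high and 40.4 and 26.4 CPM at low density (4.11 ± 0.37, adjusted p = 0.000202), so all 3 genes shown were far higher in both low-density libraries.

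Nuclear genes of the mitochondrion mostly rose or were not called. Of 77 mitochondrial ribosomal protein genes 54 rose and 1 fell (median 1.64), and of 79 nuclear genes of oxidative phosphorylation 41 rose and 1 fell (median 0.53). On total counts 75 and 77 of them were higher and none lower. Ndufa9, a subunit of complex I, rose from 1.89 and 2.27 CPM to 17.5 and 16.4 CPM (2.12 ± 0.22, adjusted p = 0.00024). Of 24 citric acid cycle genes 14 rose and 1 fell. The list also holds Mdh1, the cytosolic malate dehydrogenase, which rose from 4.37 and 4.92 CPM to 56.4 and 44.7 CPM (2.53 ± 0.25, adjusted p = 0.000214). On total counts 9 of the 10 measured mitochondrially encoded genes were higher and none lower (median 1.52). Mitochondrial counts were 0.311% and 0.159% at high and 0.590% in each library at low density. After TMM none of the 10 was called. With the replicate number as a block 2 of them rose, and without high-density library 1, which had the larger mitochondrial share of the high-density libraries, 3 did. The single falls in the DNA repair, nuclear oxidative phosphorylation and citric acid cycle lists were not called without low-density library 1.

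Glycolysis, the main energy source of neutrophils, held its share. Of 27 genes 18 fell and 1 rose after TMM, or 2 with the replicate number as a block (median -0.87), while on total counts the median was 0.04, with 3 lower and 4 higher. The lactate exporter Slc16a3 fell on both scales, from 1524 and 1806 CPM to 884 and 1201 CPM (-1.57 ± 0.27, adjusted p = 0.00144), and the related transporter Slc16a1 rose, from 1.26 and 2.22 CPM to 19 and 15.1 CPM (2.38 ± 0.34, adjusted p = 0.000673). Of 26 cholesterol and fatty acid synthesis genes 12 rose (46.2%, where 30.0% of all tested genes did) and 3 fell (11.5%, where 23.9% did). The number that fell was 6 with the replicate number as a block, 1 without high-density library 1 and 0 without low-density library 2. Scd1, which desaturates fatty acids, rose from 3.70 and 3.69 CPM to 80.1 and 73.5 CPM (3.47 ± 0.20, adjusted p = 0.000147), and Fasn, the fatty acid synthase, from 2.25 and 3.69 CPM to 62.9 and 53.3 CPM (3.38 ± 0.27, adjusted p = 0.000177). The densities did not overlap for either. Fth1, the ferritin heavy chain and among the most abundant transcripts of all, had 20574 and 20838 CPM at high and 18079 and 17347 CPM at low density (-1.13 ± 0.21, adjusted p = 0.00227, and -0.23 on total counts).

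Cytosolic chaperone genes mostly rose and the actin skeleton fell. Of 30 cytosolic chaperone genes 19 rose and 3 fell (median 1.06), among them Cct3, a subunit of the ring chaperonin that folds actin and tubulin, from 12.4 and 13 CPM to 104 and 94.0 CPM (2.05 ± 0.20, adjusted p = 0.000204). In the endoplasmic reticulum 14 of 36 genes rose (38.9%, where 30.0% of all tested genes did) and 5 fell (13.9%, where 23.9% did). The median was 0.27 against 0.10 for all tested genes, and fewer fell without low-density library 1. Pdia4, a disulfide isomerase, rose from 11.2 and 11.2 CPM to 222 and 182 CPM (3.26 ± 0.21, adjusted p = 0.000147), whereas Xbp1, the transcription factor of the unfolded protein response, fell from 599 and 590.0 CPM to 359 and 454 CPM (-1.44 ± 0.23, adjusted p = 0.000989). Proteasome genes depended on the scale, and on total counts 40 were higher and none lower. Of 41 proteasome genes 23 rose and 1 fell, with a small median of 0.54, and leaving out any 1 of the 4 libraries left 9 to 13 risen. Its single fall was not called without high-density library 1 or low-density library 1.

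Of 44 actin cytoskeleton genes 41 fell and 2 rose, Tmsb10 and Evl, with a median of -1.09 on TMM and -0.19 on total counts, where 8 were lower. Evl was not called without high-density library 1 or low-density library 2. Actb, beta-actin, fell from 8493 and 9316 CPM to 5145 and 7127 CPM (-1.43 ± 0.24, adjusted p = 0.00139), and Lcp1, the leukocyte plastin that bundles actin, from 5093 and 4475 CPM to 2934 and 3159 CPM (-1.55 ± 0.22, adjusted p = 0.0007). The list took 5.21% and 5.05% of counts at high and 3.86% and 4.23% at low density. Lysosome, autophagy and ubiquitin genes fell mostly after TMM: 27 of 44 lysosomal genes, 21 of 36 autophagy genes and 23 of 45 ubiquitin ligase and deubiquitinase genes were called lower. These are 61.4%, 58.3% and 51.1%, where 23.9% of all tested genes fell. Their medians of -0.72, -0.74 and -0.62 became 0.19, 0.16 and 0.28 on total counts. On that scale 10, 11 and 19 of them were higher and 0, 1 and 3 lower. Mcl1, the survival factor on which neutrophils depend, fell from 3041 and 3391 CPM to 2360.4 and 2709 CPM (-1.24 ± 0.23, adjusted p = 0.00214) and was not called on total counts (-0.34).

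**Figure D4:**
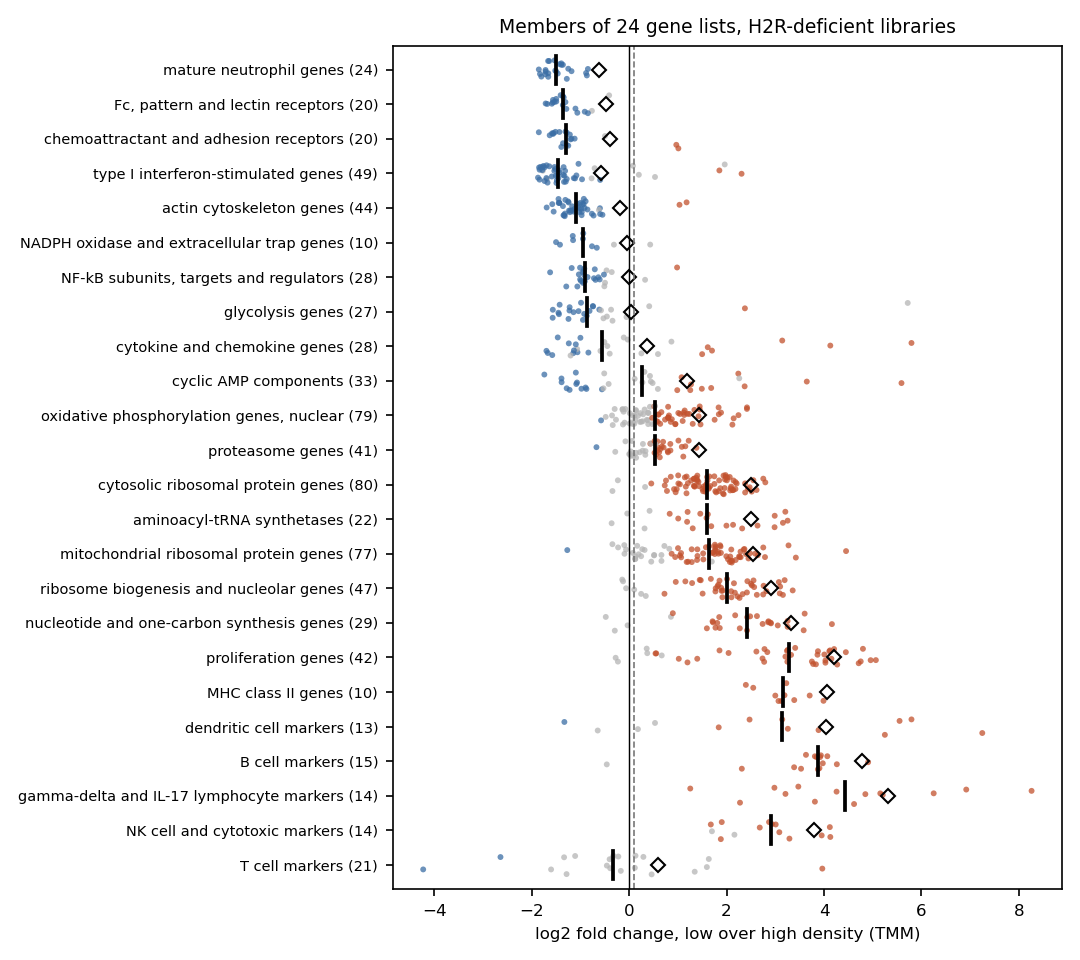
Log2 fold change (low over high density, TMM) of every measured member of 24 gene lists, with the number of members in brackets. Orange points were called higher, blue lower and grey neither, bars mark each list's median, open diamonds the median on total counts, and the dashed line the median of all tested genes. Ribosomal, division, B cell, gamma-delta and natural killer lists lie to the right on both scales, while the NF-kB and glycolysis diamonds fall at 0. The T cell median is -0.32 on TMM and 0.59 on total counts.

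The cyclic AMP pathway, through which the missing receptor would signal, moved in both directions. Of 33 measured genes 10 rose (30.3%, where 30.0% of all tested genes did) and 12 fell (36.4%, where 23.9% did), with a median of 0.27. On total counts 17 were higher and 2 lower (median 1.18), and without low-density library 1 the number that fell was 7. Adcy6, an adenylyl cyclase that makes cyclic AMP, rose from 0.315 and 0.994 CPM to 57.1 and 60.7 CPM (5.59 ± 0.65, adjusted p = 0.000491), one of the 12 largest rises by the naming rule. The inhibitory G protein chains fell: Gnai2 from 1128 and 776 CPM to 818 and 709 CPM (-1.22 ± 0.23, adjusted p = 0.00232, not called on total counts) and Gnai3 from 736 and 828 CPM to 517 and 598 CPM (-1.39 ± 0.20, adjusted p = 0.000767). For Gnai2 the CPM overlapped: the higher low-density value exceeded the lower high-density one. The phosphodiesterase Pde4b, which degrades cyclic AMP, fell after TMM (-1.07 ± 0.21, adjusted p = 0.00245) and was -0.17 on total counts, and Prkar1a, a regulatory subunit of protein kinase A, fell likewise (-1.08 ± 0.21, adjusted p = 0.00233, and -0.19). The anchoring protein Akap8 rose from 10.4 and 9.65 CPM to 50.2 and 55.0 CPM (1.49 ± 0.19, adjusted p = 0.000464). Gnas, the stimulatory G protein itself, was not called after TMM (0.11) and was higher on total counts (1.02).

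The wild-type libraries give the same contrast with no library in common, although the fit shares its estimate of spread. There 1888 genes (12.7%) were called, 1269 higher (8.51%) and 619 lower (4.15%). Of the wild-type calls, 1765 (93.5%) were called in the same direction in H2R-deficient cells, which is 21.9% of the 8044 calls there, and 1 in the opposite direction. The median absolute log2 fold change was 0.99 in deficient and 0.53 in wild-type cells. In 53 of 61 gene lists with at least 10 measured members the median lay further from 0 in deficient cells with the same sign. Cytosolic ribosomal protein genes had medians of 1.60 and 0.49, ribosome biogenesis genes 2.01 and 0.94, mature neutrophil genes -1.51 and -0.79, and B cell markers 3.88 and 2.39. The B cell share differed between the wild-type low-density libraries, 0.175% in library 2 and 0.0627% in library 4. It was 0.0120% in each wild-type high-density library. The gamma-delta and IL-17 list was 4.44 and 5.15, and T cell markers had -0.32 and 1.64, where the deficient median was 1.17 without high-density library 2 and 0.59 on total counts. The differences between list medians were not tested.

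The test of the difference itself called no gene with edgeR, where the lowest adjusted p was 0.0906 and 3150 genes (21.1%) had an unadjusted p under 0.05. limma-voom also called none, while DESeq2 called 946 and edgeR with the replicate number as a block called 28 (0.188%). Single genes are therefore not shown to differ between genotypes by the main test. Those with the lowest p included Gpd1l, a glycerol-phosphate dehydrogenase, with log2 fold changes of 2.63 in deficient and 0.28 in wild-type cells (adjusted p of the difference 0.0906). S100a4, a calcium-binding protein of motile cells, had 2.38 and 0.53, and Ccl2 1.61 and 0.07, each with the same adjusted p of the difference, 0.0906. Lin28a, an RNA-binding protein known from stem cells, had opposite signs, -1.52 and 0.81, and was 43.4 and 52.5 CPM at high and 25.7 and 36.3 CPM at low density in deficient cells. Each fell short of the threshold.

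**Figure D5:**
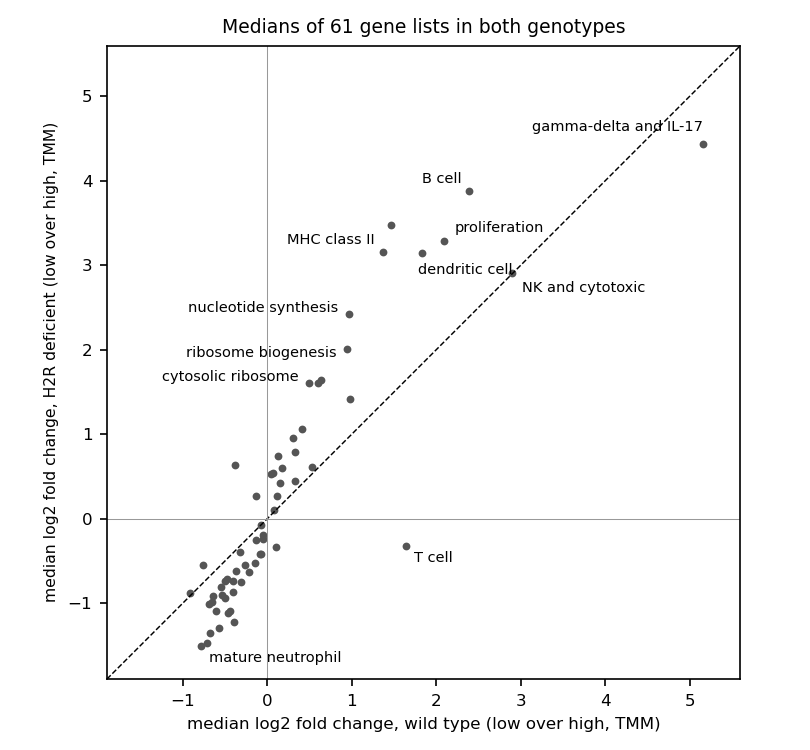
Median log2 fold change (low over high density, TMM) of 61 gene lists with at least 10 measured members, in wild-type (horizontal) and H2R-deficient libraries (vertical), with the line of equality dashed. Lists that rise lie mostly above the line and lists that fall mostly below it, and T cell markers, the gamma-delta list and a few others do not follow.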

How the data were processed

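Total RNA of 8 libraries was sequenced. The authors deposited unnormalized read counts for each gene, in featureCounts layout per the file headers. The exonic length of each gene, in bases, is another deposited column and was not used in a test. The build GRCm38, STAR 2.5.2b, featureCounts (Subread 1.5.2), Trimmomatic 0.36 and bcl2fastq 2.17.1.14 are listed in the submitters' processing notes. The sources used here do not give their settings, the strand rule or the treatment of reads with several matches, so overlapping genes and near-identical copies are uncertain. Of the identifiers, 48970 were matched to a symbol in GENCODE M21 and 345 were not.

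Genes were kept with filterByExpr by group, libraries scaled by TMM, and a robust quasi-likelihood model with 1 mean per group was fitted across the 8 libraries in R 4.3.3 with edgeR 4.0.16. It left 4 residual degrees of freedom, and the common coefficient of biological variation was 0.236. Errors after ± are standard errors, taken as the log2 fold change over the root of F. P-values were adjusted by Benjamini-Hochberg over the genes tested and called under 0.05. With 2 libraries against 2, an exact test of a single value cannot go below p = 0.333. On simulated counts the test recovered 26.6% of 94 planted 2-fold and 71.9% of 96 planted 4-fold changes, with 2 false calls among 96 calls, over 14128 genes. The simulation planted few changes, balanced in direction, whereas 54.0% of tested genes were called in the data. Its rates therefore need not hold for the data, and it did not test the scaling under so broad a shift. At this depth a floor of 3 counts is 0.135 CPM and 0.142 CPM in the high-density libraries, counting error only.

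The members and the gene lists were chosen with earlier results of these data known. Genes named are the 12 largest rises and falls with at least 10 CPM in a group and groups apart, the 10 most abundant, gained and lost in CPM, up to 5 abundant and 3 lowest-p members of each of 69 lists, Hrh2, Hdc, and the 12 lowest p of the genotype difference. Some genes that this rule names are not reported here. Chosen after their values were seen were Alpl, Arg1, C3ar1, Ccl17, Clec9a, Cxcl16, Elane, Evl, Gnas, Ifi205, Ifit1, Il17a, Il1r1, Il6, Isg15, Itga4, Mpo, Mx1, Rps27, Tmsb10 and Xcr1. Same-numbered libraries deviated together across genes (correlation 0.326 in H2R-deficient and 0.155 in wild-type libraries). With 2 libraries a group this is only 1 correlation for each genotype, and the labels do not state what a number marks. Pairing is therefore not established, and a fit with the replicate number as a block was an alternative to the main fit. Other alternatives were total counts, median ratio and upper quartile scaling, 2 other filters, DESeq2 1.42.0, limma-voom 3.58.1, the 4 H2R-deficient libraries alone, a test against 2-fold and leaving out each library.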

Additional observations from a re-analysis of the deposited data

How the results depend on the processing

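Scaling set the balance of directions: on total counts 7690 genes were higher and 389 lower, and the genotype difference called 635 genes. Without a filter on low counts that difference called 1210 genes, and with DESeq2 946. Testing against 2-fold left 2614 genes, 2252 higher and 362 lower. Leaving out 1 library gave 5394 to 8341 calls, 3331 to 4641 higher and 2063 to 3700 lower, the last falling to 2063 without H2R-deficient low-density library 1, and 0 to 3 calls of the genotype difference, with 3 without wild-type high-density library 2. Median ratio and upper quartile scaling, both other filters, limma-voom and the 4 H2R-deficient libraries alone gave 7792 to 8340 calls. DESeq2 gave 7807. Where the setting does not itself change the genes tested or the number of libraries, the cause was not tested.

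With the replicate number as a block 8450 genes were called, 4749 higher and 3701 lower, and 28 for the genotype difference. The block changed the calls of Hrh2, Col3a1 and Mki67 and of no other named gene.

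Signs turned on total counts for Clec9a (0.25), Cybb (0.59), Fau (0.56) and Rps9 (0.67), and the last 3 passed the test there. Of 120 named genes 98 kept their direction and their side of the threshold on total counts, 14 lost the call, 4 gained one in the same direction and 4 turned in sign. Leaving out 1 H2R-deficient library ended the call of 6 or 7 named genes, and upper quartile scaling and limma-voom changed none. Genes with few counts at high density limit the folds: 491 of the 4478 rises rest on at most 3 counts there.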

Other observations

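Of 47 spliceosome genes 22 rose and 5 fell (median log2 fold change 0.42), while on total counts 42 were higher and none lower (median 1.32), and without low-density library 1 the number that fell was 1. Leaving out either high-density library or low-density library 2 left 2. In the main fit 46.8% of the spliceosome list rose and 10.6% fell, where 30.0% and 23.9% of all tested genes did. The core ring protein Snrpd2 rose from 2.75 and 1.8 CPM at high to 23.7 and 20.7 CPM at low density (2.38 ± 0.24, adjusted p = 0.000221), and the splicing ligase Prpf19 from 4.24 and 4.21 CPM to 36.2 and 33.5 CPM (2.14 ± 0.19, adjusted p = 0.000193). Of 21 nuclear long noncoding RNAs and host genes of small RNAs 9 rose and 2 fell (14 higher and none lower on total counts), with 6 risen without high-density library 2 or low-density library 2. In the main fit that is 42.9% and 9.52% of the list, where 30.0% of all tested genes rose and 23.9% fell. In this list the host gene Snhg15 had 0.361 and 0.473 CPM at high and 9.67 and 12.9 CPM at low density (3.86 ± 0.53, adjusted p = 0.000588), and Snhg1 5.59 and 5.63 CPM and 28.6 and 33.6 CPM (1.57 ± 0.20, adjusted p = 0.000467). Both low-density libraries were above both high-density ones for all 4 genes. Of 51 chromatin regulators 27 fell and 10 rose after TMM (median -0.63), but on total counts none was lower and 19 were higher (median 0.27), and 17 fell without high-density library 1. In the main fit 52.9% of the chromatin list fell and 19.6% rose, where 23.9% and 30.0% of all tested genes did. The remodeller Chd7 fell from 404 and 584 CPM to 263 and 405 CPM (-1.46 ± 0.29, adjusted p = 0.00289), while the deacetylase Hdac2 rose from 4.64 and 4.45 CPM to 25.4 and 24.2 CPM (1.54 ± 0.21, adjusted p = 0.00052). Chd7 was not called on total counts, and its CPM overlapped narrowly: the higher low-density value exceeded the lower high-density one.

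Of 19 tubulin and microtubule genes 7 rose (36.8%, where 30.0% of all tested genes did) and 6 fell (31.6%, where 23.9% did). On total counts 12 were higher and none lower. Fewer fell without high-density library 1, low-density library 1 or low-density library 2. Stmn1, which destabilises microtubules in dividing cells, rose from 1.35 and 0.710 CPM to 27.6 and 14.1 CPM (3.41 ± 0.42, adjusted p = 0.000389), and the tubulin Tubb5 from 33.9 and 32.4 CPM to 246 and 159.5 CPM (1.70 ± 0.23, adjusted p = 0.000521), with low-density library 1 the higher in both. Of 8 measured plasma cell markers 6 rose and 1 fell. Irf4, a transcription factor of activated lymphocytes and dendritic cells, rose from 1.31 and 1.42 CPM to 120.4 and 86.1 CPM (5.32 ± 0.60, adjusted p = 0.000447), and Mzb1, a chaperone of immunoglobulin assembly, from 1.13 and 0.946 CPM to 58.1 and 50.2 CPM (4.79 ± 0.50, adjusted p = 0.000262). Of 20 eicosanoid genes 5 rose (25.0%, where 30.0% of all tested genes did) and 8 fell (40.0%, where 23.9% did). On total counts 8 were higher and 2 lower. Leaving out any 1 of the 4 libraries left 0 to 2 risen, with none without high-density library 1, and 4 to 6 fallen, with 4 without low-density library 2. Alox5, the enzyme that starts leukotriene synthesis, fell from 141 and 97.2 CPM to 73.3 and 74.3 CPM (-1.59 ± 0.28, adjusted p = 0.00164) and its partner Alox5ap from 900.1 and 955 CPM to 501 and 686 CPM (-1.53 ± 0.28, adjusted p = 0.00204). Among hypoxia response genes, 11 of 19 fell and 1 rose (median -0.81, or 0.09 on total counts, where 3 were lower and 2 higher), and 6 fell without high-density library 1 and 7 without low-density library 2. The glucose transporter Slc2a1 fell from 567 and 656 CPM to 363 and 469 CPM (-1.45 ± 0.21, adjusted p = 0.000776).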
